A study of Mus musculus with 4 samples.

Results

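The insulin-like growth factor axis comprises here 9 genes, measured in 4 clones of the mouse plasmacytoma line J558 (BALB/c): the ligands Igf1 and Igf2, the binding proteins Igfbp3 and Igfbp4, the receptors Igf1r, Igf2r and Insr, and the receptor substrates Irs1 and Irs2. Every probe set that the array annotation assigns to 1 of these symbols alone was taken, which gave 26 of 45101 probe sets. The genes were selected on the signals of these same 4 arrays, with the differences between silenced and control clones and between pairs already known, so their own values are a description and carry no test. The series measured 18193 named genes in all. In all, 2 control clones had received an empty silencing vector, and 2 further clones had received that vector with a sequence against AID, activation-induced cytidine deaminase, which mutates immunoglobulin genes in B cells. The latter are called the silenced clones. All 4 clones also carried a neomycin resistance vector, were selected with G418 and were grown in medium with serum, and each is a single clone measured on 1 Affymetrix array of the mouse genome. A difference can therefore be one between clones, and in bulk RNA fewer cells with a transcript and less of it per cell cannot be told apart. A pair joins 1 control and 1 silenced clone, and what the clones of a pair share beyond extraction and hybridisation is not stated. A difference between pairs therefore cannot be told apart from one in extraction or hybridisation. Where 2 values are given for a group, pair 1 comes first.

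Igf1 and Igf2 are small secreted growth factors that signal through Igf1r, a receptor tyrosine kinase, and Igf2 and insulin also signal through the related receptor Insr. Igf2r, the mannose 6-phosphate receptor, binds Igf2 and carries it to lysosomes, the binding proteins hold the ligands in the extracellular fluid and can add to or limit their access to receptors, and Irs1 and Irs2 link the activated receptors to phosphatidylinositol 3-kinase and Akt. Insulin-like growth factor signalling is known as a growth and survival input of malignant plasma cells.

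The promoters of 3 members are shown as examples of a binding protein, a receptor and a receptor substrate whose probe sets were all above the brightest bacterial control on every array. They were picked after the values were seen. Each is the 250 bases before the annotated start from RefSeq, build GRCm38.p6, written 5′ to 3′ on the strand of the gene. Capitals mark matches, on either strand, to GGGCGG (GC box), TATANA (TATA element), CACGTG (E-box) or TGTTTAC (FoxO site). The Igfbp3 sequence is chr11:7213924-7214173 on the minus strand, the Igf1r sequence is chr7:67952007-67952256 on the plus strand, and the Irs2 sequence is chr8:11008930-11009179 on the minus strand.
Igfbp3: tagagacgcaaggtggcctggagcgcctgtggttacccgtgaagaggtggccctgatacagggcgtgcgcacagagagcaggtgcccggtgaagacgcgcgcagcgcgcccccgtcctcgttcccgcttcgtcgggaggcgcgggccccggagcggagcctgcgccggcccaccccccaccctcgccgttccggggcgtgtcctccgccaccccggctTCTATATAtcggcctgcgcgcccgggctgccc
Igf1r: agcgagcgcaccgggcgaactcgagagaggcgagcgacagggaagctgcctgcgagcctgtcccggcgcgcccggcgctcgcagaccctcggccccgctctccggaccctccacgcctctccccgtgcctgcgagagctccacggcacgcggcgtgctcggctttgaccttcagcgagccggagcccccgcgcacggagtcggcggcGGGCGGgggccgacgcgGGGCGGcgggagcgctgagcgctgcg
Irs2: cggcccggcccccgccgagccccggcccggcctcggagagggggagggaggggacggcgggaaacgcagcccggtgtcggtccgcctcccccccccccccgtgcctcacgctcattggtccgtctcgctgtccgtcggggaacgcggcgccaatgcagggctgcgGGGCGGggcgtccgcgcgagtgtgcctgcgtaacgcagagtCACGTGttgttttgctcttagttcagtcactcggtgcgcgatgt
The Igfbp3 promoter held an overlapping pair of TATANA matches, 1 on each strand, with first bases 32 and 30 bases before the start. The Igf1r promoter had no TATANA match and held 2 GC boxes, at 43 and 26 bases before the start. The Irs2 promoter held 1 GC box at 85 bases and 1 E-box at 44 bases before the start. No FoxO match was present in these 3 windows. Over all 32851 promoter windows of this length, 32.7% held a GC box, 22.6% a TATANA match, 6.02% an E-box and 3.17% a FoxO match, and a match is only a description of these letters. Promoter entries were found for 8 of the 9 genes.

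The values are MAS5 signals on a linear scale, and their mean after trimming 2% at each end was 500 on every array. The median signal of an array was between 52.7 and 54.9, and the brightest of 15 bacterial control probe sets, taken as a mark of background, lay between 27.2 and 41.9. Differences are given on the log2(signal + 16) scale, which understates those of dim probe sets. Of the 26 member probe sets, 13 were above the brightest bacterial control of the same array on all 4 arrays. A low-signal filter on the mean log2(signal + 16) value kept 22518 probe sets, 14 of them member probe sets from 7 genes. Turned back to a signal, the mean at its cut was about 49.4. On the same measure, the member probe set just inside the filter was 1 for Igf2 at 64.3, and the 1 just outside was the dimmest for Insr at 38.5. All 9 plasma cell markers examined (Sdc1, Prdm1, Xbp1, Irf4, Jchain, Mzb1, Slamf7, Tnfrsf17 and Igha) were above background in every clone, with a summed signal of 135657 and 148675 in the control and silenced clones of pair 1 and 171617 and 175194 in those of pair 2. Of 8 stromal, 7 macrophage, 5 T cell and 4 endothelial markers, 1, 2, 1 and 1 were above background on all arrays, the highest being Cd68 at 866, and summed signals were 197 to 250 for stromal, 1158 to 1390 for macrophage, 80.0 to 203 for T cell and 389 to 606 for endothelial markers. Precision is limited by the number of arrays, 2 in each group, and p-values rest on these clones only. Neither the p-values, except where a block is named, nor the standard errors of members use the pairing. The error of a silencing difference therefore includes the difference between pairs, and that of a pair difference includes silencing.

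**Figure D1:**
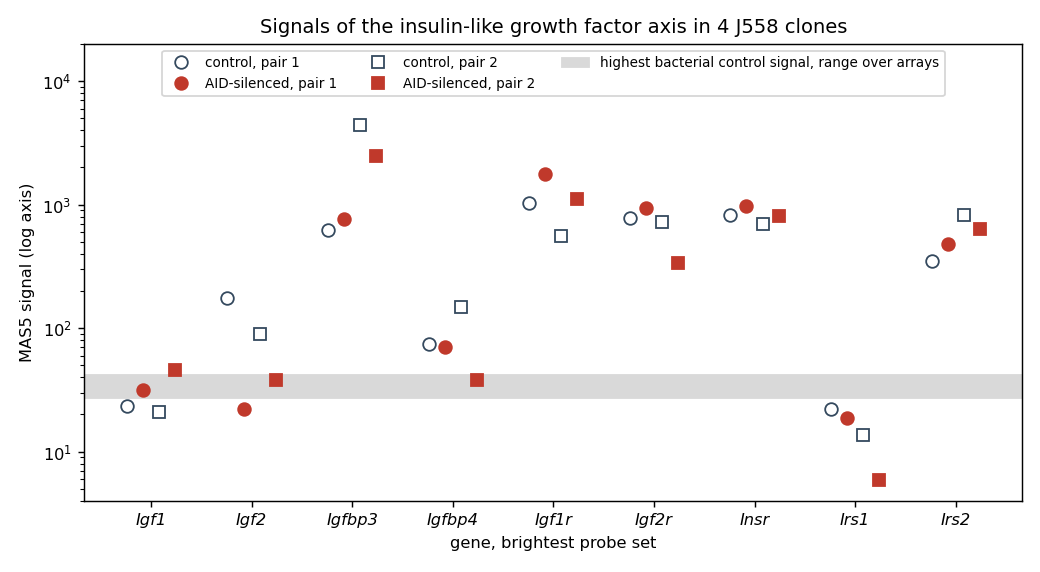
MAS5 signal (log axis) of the brightest probe set of each of the 9 genes in each of the 4 clones, 1 point per clone; open symbols are control clones, filled symbols silenced clones, circles pair 1 and squares pair 2. The grey band is the range, 27.2 to 41.9, of the brightest bacterial control over the arrays, and Igfbp3 is the gene in which both squares stand farthest above both circles.

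Igf1 was at or near background in all clones, and the brighter probe set of Igf2 was so in the silenced clones. At its brightest probe set (1437401_at), Igf1 had signals of 23.6 and 21.0 in the controls, against 31.4 and 46.2 in the silenced. The groups did not overlap, but both control values lay under the brightest bacterial control of their arrays. The other 3 probe sets of Igf1 had signals between 3.7 and 39.4, and no Igf1 probe set was above background on all 4 arrays.

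Igf2 was lower in the silenced clone of both pairs at its brighter probe set. At 1448152_at its signals were 175 and 89.6 in the controls, against 22.1 and 38.0 in the silenced. Both silenced values lay below both control values, but only 1 of the 2 silenced clones was above background, since the 22.1 was under the brightest bacterial control of its array. The mean log2 value of this probe set passed the filter through the controls. On the log2(signal + 16) scale the difference was −1.65 ± 0.50 (SE, n = 2 per group), and it was −1.03 with a pseudocount of 64, so its size is set in part by that choice and no fold is given. The second probe set (1415931_at) was dim, at 3.3 and 18.5 in the controls, against 33.0 and 3.9 in the silenced, and differed in opposite directions in the 2 pairs.

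Igfbp3, the main carrier of insulin-like growth factors in blood, was higher in both clones of pair 2, and went opposite ways between silenced and control clones in the 2 pairs. At 1458268_s_at its signals were 623 and 759 in the control and silenced clones of pair 1 and 4415 and 2494 in those of pair 2. Both clones of pair 2 stood above both clones of pair 1. The difference of pair 2 from pair 1 was 2.25 ± 0.43 (SE, n = 2 per pair), or 4.74-fold, made up of 6.94-fold in the control clones and 3.24-fold in the silenced clones. The second probe set (1423062_at) gave 510, 550, 3274 and 1815 in the same order and a difference of 2.17 ± 0.43 (SE, n = 2 per pair). Leaving out 1 clone at a time, the difference ran from 1.84 to 2.66 at the first probe set and from 1.75 to 2.59 at the second.

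Between silenced and control clones, Igfbp3 differed in opposite directions. The difference at 1458268_s_at was 0.28 in pair 1 and −0.82 in pair 2, with a mean of −0.27 ± 1.63 (SE, n = 2 per group). It became −1.67 when the pair 1 control was left out and 1.13 when the pair 2 control was, so its direction depends on the clone left out.

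Igfbp4, a binding protein that mainly limits ligand action, was near background. Its brightest probe set (1423757_x_at) had signals of 73.8 and 149.5 in the controls, against 70.2 and 37.8 in the silenced. The groups did not overlap, but the difference was −0.06 in pair 1 and −1.62 in pair 2. The other 5 probe sets lay between 1.7 and 64.7, and over all 6 probe sets 1 was higher in both silenced clones, 3 were lower in both and 2 went opposite ways.

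**Figure D2:**
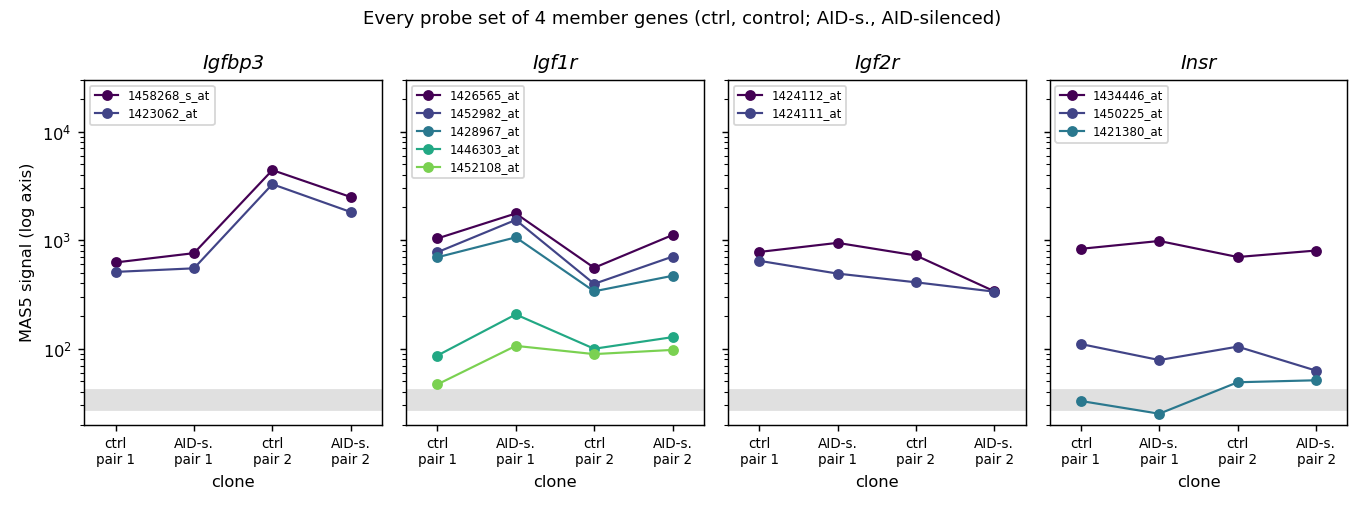
MAS5 signal (log axis) of every probe set of Igfbp3, Igf1r, Igf2r and Insr in the 4 clones; each line joins the values of 1 probe set and the grey band is the range of the brightest bacterial control. Both Igfbp3 probe sets step up in pair 2, all 5 Igf1r probe sets are higher in the silenced than in the control clone of each pair, and the probe sets of Igf2r and Insr differ among themselves.

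Igf1r was higher in the silenced clone of both pairs at all 5 of its probe sets. At the brightest (1426565_at) its signals were 1036 and 556 in the controls, against 1761 and 1114 in the silenced. The groups did not overlap, although the lower silenced value, of pair 2, was close to the higher control value, of pair 1. The difference was 0.87 ± 0.55 (SE, n = 2 per group), or 1.83-fold, with 0.76 in pair 1 and 0.98 in pair 2. This standard error does not use the pairing and includes the difference between pairs. At 1452982_at the signals were 774 and 396 in the controls, against 1535 and 705 in the silenced, a difference of 0.89. At 1428967_at they were 695 and 338 against 1061 and 469, a difference of 0.53. At these last 2 the groups overlapped, because the control clone of pair 1 was above the silenced clone of pair 2. The dimmer 1446303_at had 86.5 and 99.9 against 207 and 128, and 1452108_at had 46.9 and 89.2 against 106 and 97.5, with differences of 0.72 and 0.53. The 5 probe sets measure the same RNA of the same 4 arrays, and 2 of them share 1 source sequence and 2 another, so they are not 5 independent observations.

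The 3 bright Igf1r probe sets were also lower in pair 2 than in pair 1. The differences were −0.77 ± 0.62 at 1426565_at, −1.02 ± 0.63 at 1452982_at and −1.08 ± 0.38 at 1428967_at (SE, n = 2 per pair). The 2 dim probe sets did not share this, at −0.23 and 0.32. With the silenced clone of pair 1 left out, the difference from the controls was −0.05 at 1428967_at and 0.54 at 1426565_at.

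Igf2r, which removes Igf2 from the cell surface, was lower in pair 2 at both probe sets. At 1424112_at its signals were 778 and 944 in the control and silenced clones of pair 1 and 722 and 338 in those of pair 2, and at 1424111_at they were 645, 492, 409 and 335. The pairs did not overlap at either probe set, with differences of −0.77 ± 0.55 and −0.58 ± 0.23 (SE, n = 2 per pair). The probe sets disagreed on silencing, with 0.27 in pair 1 and −1.06 in pair 2 at the first but −0.38 and −0.27 at the other. A further probe set carries the symbols of both Igf2r and Airn, the antisense RNA at that gene, and was left out.

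The probe sets of Insr, the insulin receptor, disagreed on silencing. At its brightest probe set (1434446_at) its signals were 832 and 699 in the controls, against 982 and 802 in the silenced, a difference of 0.22 ± 0.19 (SE, n = 2 per group). The groups overlapped. The second probe set (1450225_at) went the other way without overlap, at 110.4 and 104.5 against 78.6 and 62.8, a difference of −0.52 ± 0.14 (SE, n = 2 per group). The third (1421380_at) was at 25.2 to 51.2.

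The 2 receptor substrates were far apart in their distance from background. Irs1 was represented by 1 dim probe set (1423104_at), with 22.2 and 13.7 in the controls, against 18.8 and 5.9 in the silenced, all under the brightest bacterial control of their arrays. Irs2 (1443969_at) had signals of 349.8 and 482 in the control and silenced clones of pair 1 and 821 and 638.5 in those of pair 2. Both clones of pair 2 were above both of pair 1, with a difference of 0.79 ± 0.28 (SE, n = 2 per pair), or 1.73-fold, and 1.19 in the control against 0.39 in the silenced clones. Its difference between silenced and control clones was 0.44 in pair 1 and −0.35 in pair 2.

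The 2-fold counts that follow are on the log2(signal + 16) scale. Counted together, 0 of 26 member probe sets were at least 2-fold higher in the silenced clones of both pairs, and 0 at least 2-fold lower. Over all probe sets on the arrays the shares were 0.682% and 0.744%. By the signals alone, Igf2 1448152_at and Igfbp4 1421991_a_at were more than 2-fold lower in both silenced clones, and Igfbp4 1437405_a_at more than 2-fold higher. The share of all probe sets by the signals alone was not counted. In the same direction at any size, 8 of 26 were higher in both silenced clones and 7 lower, against 25.8% and 25.9% of all probe sets. Between pairs, 2 of 26 (both Igfbp3) were at least 2-fold higher in pair 2 in the control and in the silenced clones, where 0.577% of all probe sets were, and 1 (Igf1r 1428967_at) was at least 2-fold lower, where 1.25% were. At any size 6 were higher and 10 lower in pair 2, against 27.1% and 29.9% of all probe sets. The silenced and control clones did not overlap at 5 probe sets that were higher and 4 that were lower in the silenced clones (15.5% and 15.5% of all), and the pairs did not overlap at 6 that were higher and 7 that were lower in pair 2 (19.2% and 21.4%). None of the 26 was at least 2-fold apart in opposite directions, where 0.993% were in the comparison of silenced with control clones and 0.986% between pairs. These comparisons are the ones in which the members were chosen, so nothing is read from these counts.

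**Figure D3:**
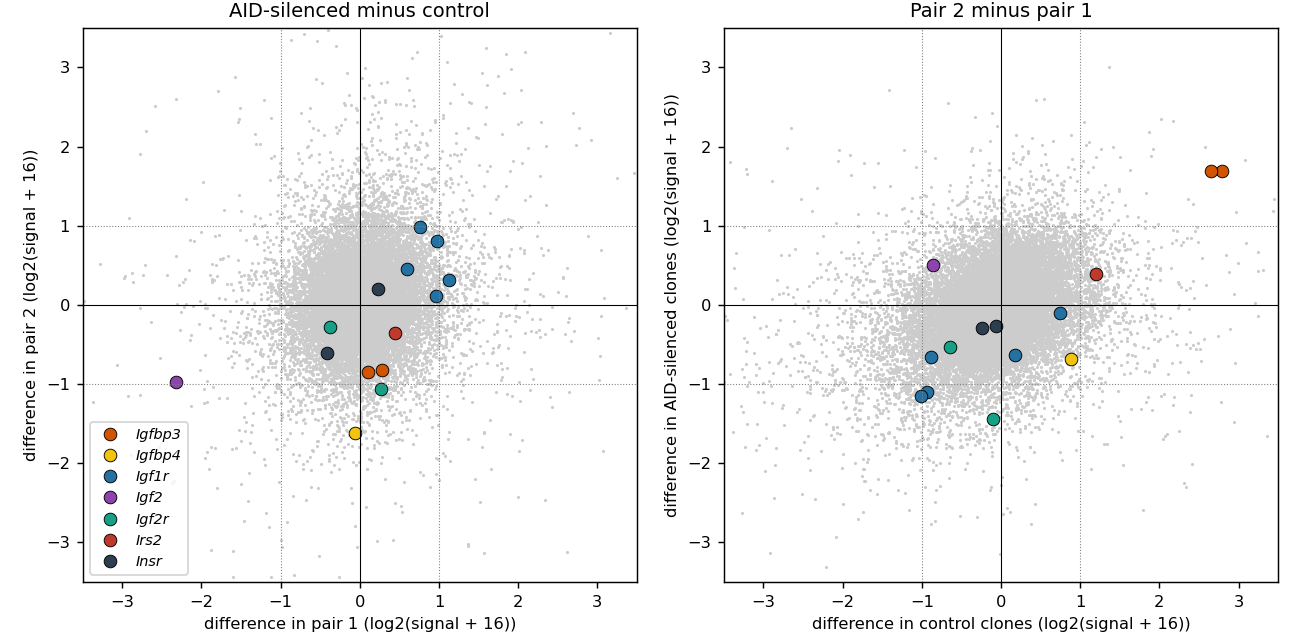
Differences on the log2(signal + 16) scale of the 14 member probe sets that passed the low-signal filter (coloured by gene) over all 22518 that did (grey; points beyond 3.5 are not drawn): left, silenced minus control in pair 1 (x) and pair 2 (y); right, pair 2 minus pair 1 in control (x) and silenced clones (y). Dotted lines mark 2-fold. The 5 Igf1r points lie in the upper right of the left panel and the 2 Igfbp3 points at the upper right of the right panel.

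Genes whose level moved over the 4 clones most like 3 of the members were found by the Euclidean distance between mean-centred log2 values over the 4 arrays, among 10473 other genes. With 4 arrays, close matches are a description only. Closest to Igf1r were 9430015G10Rik (distance 0.08; signals of 888 and 469 in the controls, against 1525 and 1014 in the silenced), Rgs12 (0.16) and Zswim6 (0.16). Closest to Igfbp3 were 9430069I07Rik (0.56), Htr3b, a serotonin receptor subunit (0.63), and Tfrc, the transferrin receptor (0.66), which had 5172 and 3991 in pair 1 and 19290 and 14708 in pair 2. Closest to Igf2 were Gramd3 (0.35), Lhx6 (0.38) and Parp9 (0.39).

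The other genes of the pathway were then examined from 6 lists of 109 genes, of which 94 were measured and 71 passed the low-signal filter, each represented by its brightest probe set. By limma with Benjamini-Hochberg adjustment over all 22518 tested probe sets, 0 of the 71 were called at an adjusted p of 0.05 between silenced and control clones, where 2 probe sets (0.00888%) were called over the whole array, and 2 of the 71 reached an unadjusted p under 0.05, against 407 of all 10474 tested genes. Between pairs, limma called 0 of the 71 and 0 of all 22518 (0%), of which 3038 reached an unadjusted p under 0.05, and 16 of the 71 reached an unadjusted p under 0.05, against 1621 of all 10474 tested genes. With the pair as a block in the first comparison, 8 probe sets (0.0355%) were called over the whole array. With silencing as a block in the second, 4 probe sets (0.0178%) were called. None of these stood for the 71 genes. Of the 71 genes, 19 were higher and 22 lower in both silenced clones (26.7% and 27.5% of all tested genes), and 14 were higher and 30 lower in pair 2 in both kinds of clone (26.4% and 38.5%). Their median difference was 0.02 between silenced and control clones and −0.08 between pairs, beside −0.005 and −0.07 over all tested genes.

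Of 12 other binding proteins, stanniocalcins and proteases that act on them, 3 passed the filter. Igfbp5, a binding protein of matrix and bone, had signals of 361 and 1429 in the controls, against 1808 and 1075 in the silenced, so that the control clone of pair 1 stood below the other 3. Stc2, a secreted inhibitor of the protease that cleaves Igfbp4, had 1422 and 1056 in pair 1 and 388 and 339 in pair 2, a difference of −1.71 (limma adjusted p = 0.200), and all 3 of its probe sets were lower in pair 2. Igfbp6 had 64.9 and 53.1 in the controls, against 48.1 and 54.6 in the silenced. Igfbp1, the neighbour of Igfbp3 on its chromosome, was dim in all clones, at 4.6 to 41.9. On the other side of Igfbp3, Tns3 had 1465 and 1935 in pair 1 and 1343 and 2405 in pair 2, with a mean difference of 0.09 between pairs. Among insulin-family genes and Igf2 mRNA-binding proteins, 2 of 9 were tested, and Igf2bp3, which binds Igf2 mRNA, had 224 and 214 in pair 1 against 73.1 and 88.4 in pair 2 (difference −1.29, limma adjusted p = 0.245).

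Among 21 tested adapters and negative regulators, 4 were higher and 8 lower in both silenced clones, and 4 higher and 8 lower in pair 2. Gab2, a docking protein, had 273 and 212 in pair 1 and 34.7 and 27.8 in pair 2 (difference −2.45, limma adjusted p = 0.200), but its second tested probe set had 104.7 and 26.6 against 105.3 and 20.8. Trib3, a pseudokinase that binds Akt, had 4976 and 2454 in pair 1 and 1169 and 787 in pair 2 (difference −1.85, limma adjusted p = 0.245). Socs2, a suppressor of cytokine and growth hormone signalling, had 689 and 497 against 280 and 135 (difference −1.51, limma adjusted p = 0.255). Sos1, the exchange factor that loads Ras, had 2056 and 1469 against 743 and 584 (difference −1.38, limma adjusted p = 0.245). Nedd4, a ubiquitin ligase, had 3240 and 11740 in the controls, against 3154 and 1401 in the silenced, so that the control clone of pair 2 stood apart, as it did at all 3 probe sets. With all 4 clones the Nedd4 difference between pairs was 0.35 (limma adjusted p = 0.916). It was 1.85 in the control and −1.16 in the silenced clones. Without the silenced clone of pair 2 it was 1.87, but pair 2 was then its control clone alone.

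In the list of phosphatidylinositol 3-kinase and Akt genes, 18 were tested, of which 6 were higher and 4 lower in both silenced clones, and 3 higher and 8 lower in pair 2. Pik3cg, a catalytic subunit of leukocytes, had 3329 and 2701 in the controls, against 6187 and 4232 in the silenced, and its second probe set had 495 and 431 against 874.5 and 813. Its difference of 0.77 had a limma adjusted p of 0.9996. Inppl1, a lipid phosphatase that opposes the pathway, had 928 and 1234 in pair 1 against 244 and 487.5 in pair 2 (difference −1.59, limma adjusted p = 0.245). Foxo1, a transcription factor that Akt restrains, had 694.5 and 827 against 477 and 413 (difference −0.75).

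Among 17 tested genes of the mTOR branch, 4 were higher and 5 lower in both silenced clones. Sesn2, a stress-induced inhibitor of mTORC1, had 2231 and 1602 in the controls, against 1824 and 654 in the silenced (difference −0.78), and Ddit4, another inhibitor, differed by −0.70. Between pairs, 5 of the 17 were higher and 8 lower in pair 2. Deptor, an mTOR-binding inhibitor, was lower, at 382 and 524 in pair 1 against 174 and 328 in pair 2. Rictor, a subunit of mTORC2, was higher, at 526 and 829 in pair 1 against 1126 and 882 in pair 2 (difference 0.58). Its other probe sets were also higher in both kinds of clone, except 1429810_at, at 0.93 in the control and −0.44 in the silenced clones. Among 10 tested genes of the Ras and MAP kinase branch, 5 were higher and 4 lower in both silenced clones, and 2 were higher and 4 lower in pair 2. Spry4, a feedback inhibitor of receptor tyrosine kinases, had 66.3 and 22.2 in the controls, against 118.9 and 90.4 in the silenced (difference 1.10), with limma adjusted p = 0.9996. The 22.2 was under the brightest bacterial control of its array, as were all values of the other 3 Spry4 probe sets, of which 2 read lower in both silenced clones. Spry1, a relative of Spry4, went the other way, at 162 and 207.5 in the controls, against 124.8 and 78.1 in the silenced (difference −0.79, limma adjusted p = 0.9996). Spred1, another inhibitor of Ras signalling, had 521 and 572 in pair 1 against 133 and 333 in pair 2 (difference −1.30, limma adjusted p = 0.298). Its other tested probe sets were lower in pair 2 in both kinds of clone, except 1452911_at. That probe set had 163.3 and 112.4 in pair 1 against 32.5 and 137 in pair 2. Nras, a Ras GTPase, had 1521 and 1245 in pair 1 against 2100 and 1858 in pair 2 (difference 0.52), but its other 2 probe sets were lower in pair 2.

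**Figure D4:**
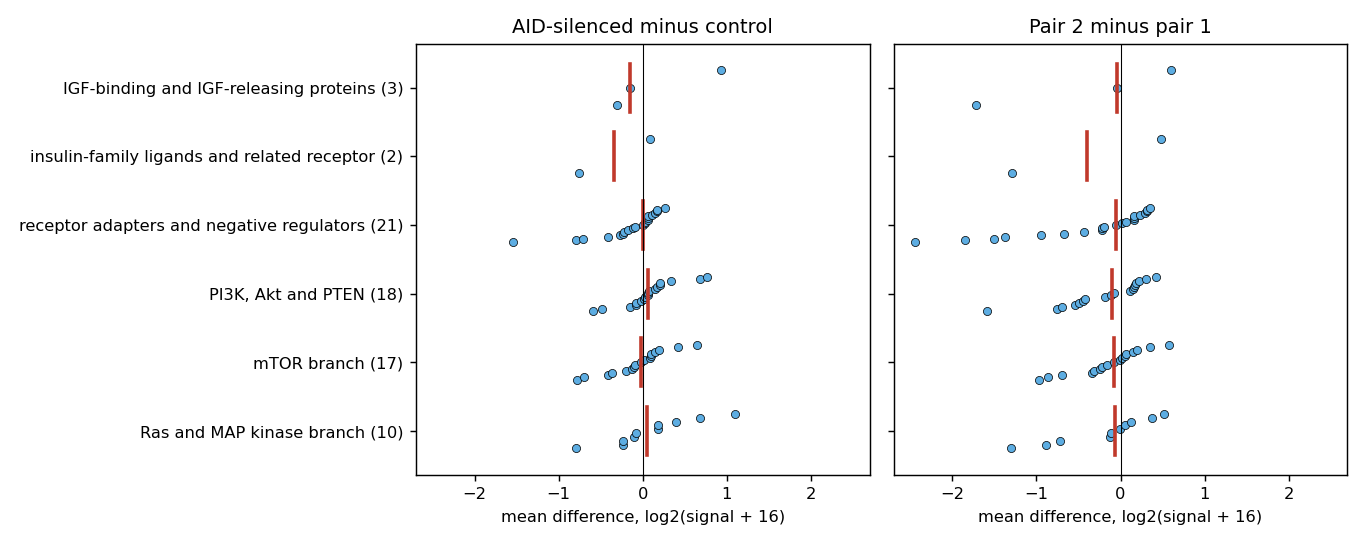
Mean difference on the log2(signal + 16) scale of each tested gene (blue points, brightest probe set) in the 6 pathway lists, with the number tested in brackets and the median of the list as a red bar; left, silenced minus control; right, pair 2 minus pair 1. The medians of the lists with 10 or more genes lie near 0 in both panels, and the adapters reach farthest to the left between pairs, at −2.45 for Gab2.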

How the data were processed

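The deposited values are array intensities, 1 MAS5 signal per probe set on a linear scale, per the submitters' processing notes; a MAS5 version and scaling target are not given in the sources used here. MAS5 combines perfect-match and mismatch probes, and its signals for dim probe sets vary strongly. The trimmed mean (2% cut at each end) was checked and equalled 500 on each array, so the arrays were not normalised again. After 64 control probe sets were left out, log2(signal + 16) was used, and probe sets whose mean log2 value ranked in the upper 0.5 (22518) were fitted with limma 3.58.1 (statmod 1.5.0, R 4.3.3; lmFit, eBayes with trend and robust set to TRUE). Every array entered the fit, run for silenced against control and for pair 2 against pair 1, with Benjamini-Hochberg adjustment. The standard errors of members are from the 2 values in each group, do not use the pairing and are not moderated. The fit was tested on simulated data. Probe sets were named by the platform annotation, and gene identifiers matched GRCm38.p6 with 0 symbols changed.

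The series text presents the clones as pairs, which was taken as the pairing. As a check, the pair differences of the control and silenced clones correlated across tested probe sets (r = 0.306, rho = 0.336; probe sets are not replicates). The members and lists were chosen with earlier results of these data known. All member probe sets are given. Other pathway genes were named if called, or as up to 4 per list and comparison with the largest difference of constant sign; Igfbp5, Igfbp6, Igfbp1 and Tns3 were named outside that rule, and Stc1 in the closing section, Igfbp5, Igfbp6 and Stc1 after their values were seen. The alternatives tried were pseudocounts of 1 and 64, median scaling, quantile normalisation, other filters, blocks, a constant prior, the mean of probe sets and leaving out each clone. The level of the silenced gene is not reported here. Figures were drawn with matplotlib 3.10.9.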

Additional observations from a re-analysis of the deposited data

Results flagged for a closer look

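Igfbp5, which is not among the 9 genes, was at least 2-fold apart in opposite directions in the 2 pairs at its dimmer probe set (1422313_a_at). The silenced minus control difference was 2.64 in pair 1 and −1.10 in pair 2. The difference between the pairs was not tested. At the brighter probe set the values were 2.27 and −0.40. None of the 26 member probe sets was at least 2-fold apart in opposite directions, where 0.993% of all probe sets were.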

How the results depend on the processing

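Between silenced and control clones, limma called 2 probe sets on the whole array, 8 with the pair number as a replicate block, 0 with a constant, non-robust prior and between 0 and 146 when 1 clone was left out. It called 146 without the control clone of pair 1, 52 without that of pair 2 and 0 without the silenced clone of pair 1. Between pairs it called 0, 4 with silencing status as a block, and between 0 and 59 when 1 clone was left out, 59 without the silenced clone of pair 2. Pathway genes called between pairs numbered 0 in all settings but that last, where 1 (Nedd4) was called, so leaving out 1 clone gave 0 to 1; between silenced and control clones they numbered 0 in every setting run. The cause of these shifts was not tested. Without the low-signal filter, probe sets at least 2-fold apart the same way numbered 642 between silenced and control clones, against 196, and 825 between pairs, against 377. With 1 clone left out these counts have no second pair to compare with and were not run. With a pseudocount of 64 they numbered 106 and 183, and with a stricter filter (the upper 0.25) 42 and 124. The members' differences moved by less than the spread between clones for 199 values under the alternatives for silencing, with 9 that moved more, and for 197 and 11 for pairs, and those that moved more did so with pseudocounts of 1 or 64, mostly at dim probe sets. The sign changed under at least 1 alternative for 14 of the 26 silencing differences, both of Igfbp3 and 1 of Igf1r among them, and for 10 of the 26 pair differences, none of them of Igfbp3, Igf2r or Irs2. With a clone left out, the lone clone of its group is assumed to vary like the others. Signal over background limits Igf1, Igf2, Irs1 and most probe sets of Igfbp4. No Igf2 probe set was above the brightest bacterial control on all 4 arrays.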

Other observations

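Stc1, a secreted glycoprotein related to Stc2, was below the low-signal filter and was picked after its values were seen. At its brighter probe set (1450448_at) it had signals of 10.4 and 10.6 in the controls, both under the brightest bacterial control of their arrays, and 82.9 and 52.4 in the silenced clones. The other probe set (1421984_at) was at 1.5 to 8.9, under the brightest bacterial control in every clone.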
